A study of Mus musculus with 10 samples.

Results

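Complement is a cascade of plasma and cell-surface proteins that marks targets by cleaving C3, its central component, and that host cells restrain with inhibitors on their membranes. 9 mouse genes of this system were described: the components C3, Cfb and C1ra, the membrane regulators Cd55, Cd59a, Cr1l and Cd46, the soluble inhibitor Serping1 and the C1q-binding protein C1qbp. They were selected by symbol after their measured values were known, so levels and ratios that led to the choice are given as descriptions. All 9 had a row among the 46509 genes of the all-gene tables. 4 of them (C3, Cd55, Cd46 and Serping1) were also in a deposited list of 1852 genes with values in libraries 1, 2, 5 and 6, and 3 (Cd55, Cd46 and Serping1) in a list of 1637 genes with values in libraries 3, 4, 7 and 10.

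The cells were conditionally immortalized mouse renal proximal tubule cells of mixed strain, from an N2 FVB mouse carrying floxed TbRII crossed to the Immorto-mouse, whose interferon-inducible T antigen lets cells divide in culture. All 10 libraries came from these cells, 1 library per group. For all 10, also those without siRNA, the entered temperatures were 33 °C for the siRNA step and 37 °C for later culture. The later culture was without interferon gamma. Library 2 received Wnt3a at 20 ng/mL and library 1 the Wnt diluting buffer, both without H2O2 and without siRNA. Library 6 received 100 uM H2O2 and Wnt3a, and library 5 received H2O2 with no Wnt3a entered. Library 4 (FoxO1 and FoxO3 siRNA) and library 3 (scramble siRNA) both received Wnt3a without H2O2. Library 8 (FoxO1 siRNA), library 9 (labelled FoxO3 siRNA), library 10 (both siRNAs) and library 7 (scramble siRNA) all received H2O2 and Wnt3a. Because no group had a second library, no spread between replicates could be measured and no test between conditions was made; every difference below is between single libraries.

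Complement can start on antibody or damaged cells through C1q with its proteases C1r and C1s, on sugars through lectins, or by slow spontaneous activation of C3 that factor B and properdin amplify. CD55 speeds the decay of the convertases that cleave C3, CD46 and the rodent protein CRRY (encoded by Cr1l) serve as cofactors for inactivation of C3b, and CD59 blocks insertion of the membrane attack complex. Kidney tubule epithelium can make C3 itself, and in rodents CRRY is the regulator best known for protecting the tubule.

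The sequences upstream of C3 and Cd55 are shown because these 2 genes differed most between libraries. Each is the 250 bases before the start of the gene, on the gene's own strand, from RefSeq on build GRCm38.p6. That of C3 lies at chr17:57228137-57228386 and that of Cd55 at chr1:130462745-130462994, both on the minus strand. Capitals mark a C/EBP-type match (TTGCGNAA) in C3 and 2 GC boxes (GGGCGG, read here as its reverse complement) in Cd55.
C3: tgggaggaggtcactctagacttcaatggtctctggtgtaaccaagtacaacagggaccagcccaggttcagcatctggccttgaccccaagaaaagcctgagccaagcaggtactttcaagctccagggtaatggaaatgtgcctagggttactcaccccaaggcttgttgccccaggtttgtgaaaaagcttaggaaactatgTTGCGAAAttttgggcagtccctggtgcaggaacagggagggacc
Cd55: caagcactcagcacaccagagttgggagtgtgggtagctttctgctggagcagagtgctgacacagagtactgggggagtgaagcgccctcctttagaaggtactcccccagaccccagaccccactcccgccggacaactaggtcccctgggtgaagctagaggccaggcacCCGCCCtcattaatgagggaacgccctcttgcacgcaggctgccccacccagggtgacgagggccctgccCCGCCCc
The C3 match ran from 45 to 38 bases before the start, and those of Cd55 from 77 to 72 and from 7 to 2 bases before it. Both of these motifs were picked after the sequences had been read, and on either strand TTGCGNAA stood in 0.670% and GGGCGG in 32.7% of 32851 promoter windows of this length. Of the 9 genes, 7 had an entry in the RefSeq table. On both strands, 0 of these 7 windows held the FoxO motif GTAAACA (3.17% of all windows), the TCF/LEF motif CTTTGAT (3.21%) or the NF-kB motif GGGANTTTC (0.941%). The pattern TTGCNNNAA (8.29%), planned as a C/EBP motif, also matched in 0 of the 7. It sets TTGC and AA farther apart than TTGCGNAA, so its 0 does not cover matches with the closer spacing, such as that in C3. An interferon-response motif, GAAANNGAA (7.13% of all windows), matched in Cd59a only, as GAAAGGGAA from 187 to 179 bases before its start. A match in these letters is a description of the sequence and not a binding site.

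Values were FPKM, fragments scaled by transcript length and library size, as the authors deposited them, and a ratio is log2((a + 1)/(b + 1)) within 1 table. Foxo1 stood at 3.66 FPKM in the FoxO1 siRNA library, at 8.54 FPKM in the library labelled FoxO3 siRNA and at 4.67 FPKM with both siRNAs, against 7.92 FPKM in the scramble library (ratios -0.94, 0.09 and -0.66). Foxo3 stood at 17.7, 19.9 and 17.4 FPKM in the same 3 libraries and at 19.7 FPKM in the scramble library (ratios -0.14, 0.01 and -0.17), so Foxo3 was not lower in the library labelled FoxO3 siRNA. Of 20 markers of the proximal tubule 8 reached 1 FPKM, among them Lrp2 and Pax8, while the transporter genes Slc34a1 and Slc22a6 and the factor gene Hnf4a were at or near 0. Summed leukocyte markers stood at 31.1, 35.3, 34.0 and 27.9 FPKM in libraries 8, 9, 10 and 7, mostly Cd14. Of these 10 markers, 3 reached 1 FPKM: Cd14, Cd68 (5.28 to 6.20 FPKM) and Csf1r (1.23 to 2.22 FPKM). Ptprc was at 0.0387 FPKM or less, and 3 of the 10 were at 0 in all 4 libraries. Summed fibroblast markers, with only Fbln1 of 7 at 1 FPKM or more, came to 6.70, 7.99, 7.56 and 6.75 FPKM, and none of 5 endothelial markers reached 1 FPKM. The part of these marker differences in the results below was not tested. Relative to library 7, the estimated depth was 0.883, 0.920 and 0.911 in libraries 8, 9 and 10, and the absolute depth is unknown.

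Across the 4 libraries with H2O2 and Wnt3a, 6 of the 9 genes reached 1 FPKM and 3 did not. C1qbp, whose product is a mostly mitochondrial protein that also binds C1q, was the highest at 144 to 152 FPKM. Cd59a (22.6 to 25.6 FPKM), Cr1l (21.8 to 22.9 FPKM), C3 (14.5 to 23.4 FPKM) and C1ra (6.56 to 8.30 FPKM) followed, and Cd55 lay between 0.942 and 5.12 FPKM. Cfb (0.244 to 0.518 FPKM), Serping1 (0.0828 to 0.359 FPKM) and Cd46 (0.0605 to 0.272 FPKM) stayed below 1 FPKM in all 4. Thus 6 of the 9 genes were measured, meaning that either library of a comparison reached 1 FPKM. From table to table, library 7 shifted by a median factor of at most 1.00334, so levels in these 4 libraries can be set side by side. Among those 6 the highest library exceeded the lowest by 5.43-fold for Cd55, 1.61-fold for C3 and 1.26-fold for C1ra, and by 1.13-fold or less for Cd59a, Cr1l and C1qbp.

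**Figure D1:**
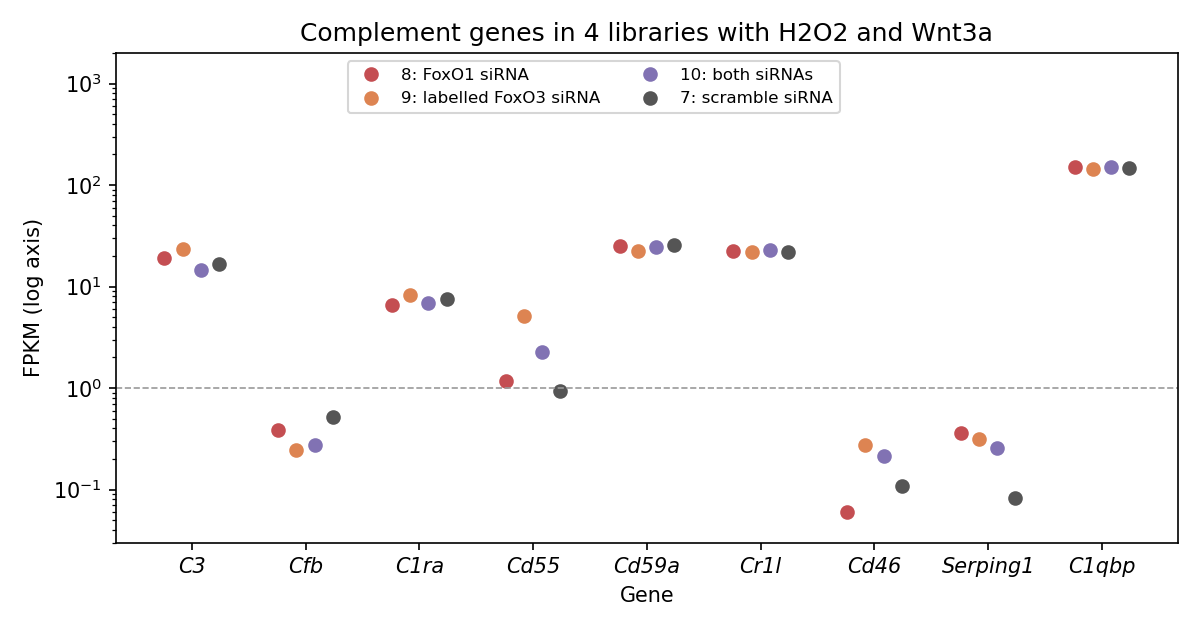
FPKM (log axis) of the 9 complement genes in libraries 8, 9, 10 and 7, all with H2O2 and Wnt3a; each point is 1 library and the dashed line marks 1 FPKM. Cd55 spans 0.942 to 5.12 FPKM, while the points of Cr1l and C1qbp nearly coincide.

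C3 (chr17:57203970-57228136, minus strand, GRCm38) had its widest differences between libraries with Wnt3a and those with buffer or no Wnt3a entered. Without H2O2 it stood at 8.88 FPKM in the Wnt3a library, against 0.942 FPKM in the buffer library, which is 9.43-fold and a ratio of 2.35. With H2O2 it stood at 25.0 FPKM in the Wnt3a library, against 0.622 FPKM in the library with no Wnt3a entered, which is 40.2-fold and a ratio of 4.00. Both libraries with Wnt3a were high, and the buffer library and the library with no Wnt3a entered were below 1 FPKM. In bulk RNA, fewer cells that express a gene and less of its RNA per cell cannot be told apart.

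The list that holds these values was selected by the authors on the first pair: every gene in it had a log2 ratio of at least 0.5 for Wnt3a over buffer, before any pseudocount. Among its genes measured in the pair without H2O2, C3 ranked 9 of 502 (median ratio 0.56), and in the pair with H2O2 it ranked 5 of 509 (median ratio 0.33). In the pair with H2O2, 36.5% of the 509 genes lay 0.58 or more higher, C3 among them. Of the 4 genes in the list that belong to the 9 described here, only C3 was measured in that pair. Its ratio was larger by 1.66 with H2O2 than without it, a difference that was not tested. The 2 pairs come from tables that may have been scaled separately, so no fold is taken from one pair to the other.

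C3 differed far less among the siRNA libraries. It stood at 19.1 FPKM in the FoxO1 siRNA library, 23.4 FPKM in the library labelled FoxO3 siRNA and 14.5 FPKM in the joint siRNA library, against 16.8 FPKM in the scramble library. The ratios were 0.18, 0.45 and -0.20, none past the size rule of 0.58, and the joint siRNA library was the only one below the scramble library. By rank from the highest ratio, C3 was 1352 of 11912, 372 of 11945 and 10506 of 11954 measured genes. The robust spread of ratios over all genes at 5 FPKM or more was 0.113, 0.157 and 0.122 in the 3 comparisons. Against each other, the joint siRNA library lay below the library labelled FoxO3 siRNA by a ratio of -0.66 and below the FoxO1 siRNA library by -0.38. In the authors' deposited table the p-values of C3 were 0.437, 0.0891 and 0.346, each with a q-value of 0.999; they compare 2 libraries and not the conditions.

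Placed side by side over the 8 libraries with a value, as deposited and with any difference in scaling between tables left in, C3 was highest in the 5 libraries with both H2O2 and Wnt3a (14.5 to 25.0 FPKM), followed by Wnt3a alone (8.88 FPKM), buffer (0.942 FPKM) and H2O2 with no Wnt3a entered (0.622 FPKM). Libraries 7 to 10 also received siRNA, while libraries 1, 2, 5 and 6 did not. Library 2 thus differs from libraries 7 to 10 by siRNA as well as by H2O2. With 1 library per group, neighbours in this order cannot be said to differ. The C3 levels of libraries 3 and 4 were not analysed here.

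**Figure D2:**
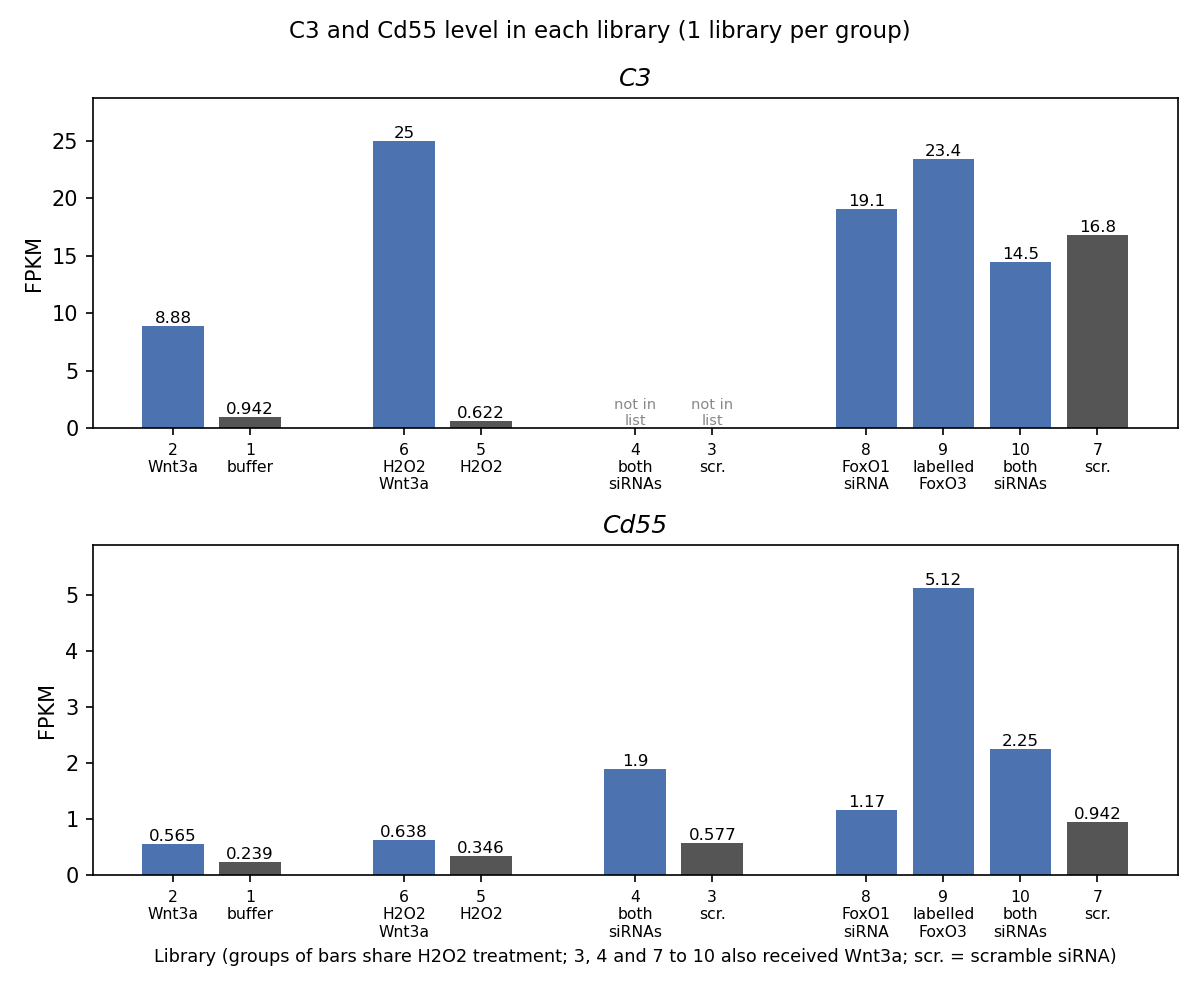
FPKM of C3 (upper panel) and Cd55 (lower panel) in each library, 1 bar per library, with blue bars for the Wnt3a or siRNA library and grey bars for the one it is set against. Of the 8 libraries with a C3 value, those below 1 FPKM are 1 and 5, and Cd55 is highest in library 9 at 5.12 FPKM; levels are scaled by table, so bars are best read within a group.

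The other activating components were expressed below C3 in these 4 libraries. Cfb, which encodes factor B, the protease subunit of the alternative pathway convertase, stood at 0.386, 0.244 and 0.272 FPKM in libraries 8, 9 and 10, against 0.518 FPKM in the scramble library. All 3 siRNA libraries were below the scramble library, but at such levels the gene did not count as measured, and 79.5% of its exonic bases are shared with Gm20547 on the same strand, so the assignment of its reads is uncertain. C1ra, which encodes a C1r protease, stood at 6.56, 8.30 and 6.82 FPKM, against 7.47 FPKM in the scramble library (ratios -0.16, 0.13 and -0.12). Its near-identical copy C1rb could share reads with it.

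Cd55 (chr1:130439027-130462744, minus strand), the decay-accelerating factor gene, differed most among the regulators. It stood at 1.17 FPKM in the FoxO1 siRNA library, 5.12 FPKM in the library labelled FoxO3 siRNA and 2.25 FPKM in the joint siRNA library, against 0.942 FPKM in the scramble library. All 3 siRNA libraries were above the scramble library, the FoxO1 siRNA library only slightly. The plain folds were 1.24, 5.42 and 2.38 and the ratios 0.16, 1.65 and 0.74, the pseudocount making the ratios smaller than the folds at these low levels. Cd55 ranked 1604 of 11912, 6 of 11945 and 60 of 11954 from the highest ratio. Its near copy Cd55b, 16017 bases away, could share reads with it and was listed at 0 in libraries 7 to 10.

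In the library labelled FoxO3 siRNA, 1.84% of measured genes lay 0.58 or more above the scramble library and 1.89% as far below it, and 1 of the 6 measured complement genes, Cd55, was higher and 0 lower. In the joint siRNA library the shares over all measured genes were 1.14% higher and 0.945% lower, and again 1 of the 6, Cd55, was higher and 0 lower. In the FoxO1 siRNA library 1.03% of measured genes were higher and 0.881% lower, and 0 of the 6 passed either way. Median ratios of the 6 were 0.03, 0.06 and -0.02 in libraries 8, 9 and 10, beside -0.006, -0.017 and -0.016 over all measured genes. These counts describe genes chosen for such values and carry no test.

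The authors' deposited table gave Cd55 a p-value of 5e-05 and a q-value of 0.0352 in the library labelled FoxO3 siRNA against scramble, 1 of 19 genes at or below 0.05 of 13389 tested. For the joint siRNA library the authors' deposited table gave a p-value of 0.0058 and a q-value of 0.999, and for the FoxO1 siRNA library a p-value of 0.458. These values set single libraries against each other and do not carry over to the conditions. Between siRNA libraries, Cd55 was higher in the library labelled FoxO3 siRNA than in the FoxO1 siRNA library by a ratio of 1.50. In the joint siRNA library it was higher than in the FoxO1 siRNA library by 0.58 and lower than in the library labelled FoxO3 siRNA by a ratio of -0.91.

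Without H2O2 the direction of the joint siRNA comparison was the same. Cd55 stood at 1.90 FPKM in library 4 with both siRNAs, against 0.577 FPKM in the scramble library 3, a fold of 3.28 and a ratio of 0.88. With H2O2 the ratio of joint siRNA over scramble was 0.74. The ratio with H2O2 minus that without it was -0.13 before rounding, a difference that was not tested. The list holding these values was selected on an absolute log2 ratio of 0.5 or more in both pairs, and Cd55 ranked 17 of 266 measured genes without H2O2 (median ratio 0.30) and 32 of 285 with H2O2 (median ratio 0.31). In that list 7.98% of the 213 genes measured in both pairs were 0.58 or more higher in both, Cd55 among them.

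In the 4 libraries without siRNA, Cd55 stayed below 1 FPKM. It stood at 0.565 FPKM in the Wnt3a library, against 0.239 FPKM in the buffer library (ratio 0.34), and at 0.638 FPKM with H2O2 and Wnt3a, against 0.346 FPKM with H2O2 and no Wnt3a entered (ratio 0.28). Both Wnt3a libraries were above their partners, by folds of 2.36 and 1.84. The direction without H2O2 was fixed by the authors' selection of the list on that pair, and Cd55 did not count as measured in either pair. Placed side by side over all 10 libraries, again as deposited, Cd55 was lowest in the 4 libraries without siRNA and the scramble library without H2O2 (0.638 FPKM or less). It was highest in the 4 libraries labelled with FoxO siRNA (1.17 to 5.12 FPKM). The highest of these, library 9, had ratios to scramble of 0.09 for Foxo1 and 0.01 for Foxo3. As for C3, neighbours in this order cannot be said to differ.

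The other membrane regulators were level or nearly absent. Cd59a, which encodes a blocker of the membrane attack complex, stood at 25.2, 22.6 and 24.3 FPKM in libraries 8, 9 and 10, against 25.6 FPKM in the scramble library (ratios -0.02, -0.18 and -0.07). Its neighbouring copy Cd59b, which could share reads with it, was at 1.18 FPKM in library 9 and 0.719 FPKM in library 10 and was listed at 0 in libraries 8 and 7. Cr1l, which encodes CRRY, stood at 22.3, 21.8 and 22.9 FPKM, against 22.0 FPKM in the scramble library (ratios 0.02, -0.01 and 0.05). Cd46 and Cr1l lie 5132 bases apart on chromosome 1, yet Cd46 was nearly 0 where Cr1l was well expressed. In mice Cd46 is known mainly from the testis, and it stood at 0.0605, 0.272 and 0.214 FPKM in the siRNA libraries, against 0.108 FPKM in the scramble library. In the pairs without siRNA Cd46 stood at 0.282 FPKM with Wnt3a, against 0.0543 FPKM with buffer, and at 0.147 FPKM with H2O2 and Wnt3a, against 0.0282 FPKM with H2O2 and no Wnt3a entered. Without H2O2 it was at 0.0594 FPKM with both siRNAs, against 0.174 FPKM with scramble siRNA. Levels this low give no reliable ratio, and 14.2% of the exonic bases of Cd46 overlap A330023F24Rik on the opposite strand.

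Among the inhibitors outside the membrane, Serping1, which encodes the C1 inhibitor that shuts off C1r and C1s, stood at 0.359, 0.316 and 0.254 FPKM in libraries 8, 9 and 10, against 0.0828 FPKM in the scramble library. It was at 0.425 FPKM with Wnt3a, against 0.276 FPKM with buffer, and at 0.627 FPKM with H2O2 and Wnt3a, against 0.370 FPKM with H2O2 and no Wnt3a entered. Without H2O2 it was at 0.1 FPKM with both siRNAs, against 0.190 FPKM with scramble siRNA. All 10 values were below 1 FPKM. C1qbp stood at 152, 144 and 152 FPKM, against 148 FPKM in the scramble library, with ratios of 0.03, -0.04 and 0.03.

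The genes whose 3 siRNA ratios were nearest to those of Cd55 were compared by Euclidean distance among 8980 genes. They were Aldh1a7 (distance 0.23), Aldh1a1 (0.25), Aqp1 (0.38), Olfm1 (0.50) and Cpz (0.53). Aldh1a1, a retinaldehyde dehydrogenase gene, had ratios of 0.40, 1.68 and 0.73 in libraries 8, 9 and 10 over scramble, and Aqp1, the water channel gene of the proximal tubule, had 0.33, 1.32 and 0.68, with 18.1, 37.2 and 23.5 FPKM against 14.3 FPKM in the scramble library. Aldh1a7 is a close copy of Aldh1a1 and could share reads with it. Those nearest to C3 were Ivd (0.08), Hoxb6 (0.14), Hrsp12 (0.14), Gatsl2 (0.14) and Tsc22d4 (0.15), and Ivd, a leucine-breakdown dehydrogenase gene, had ratios of 0.16, 0.40 and -0.15. All 3 ratios share the scramble library, so likeness over 3 points is a description only.

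**Figure D3:**
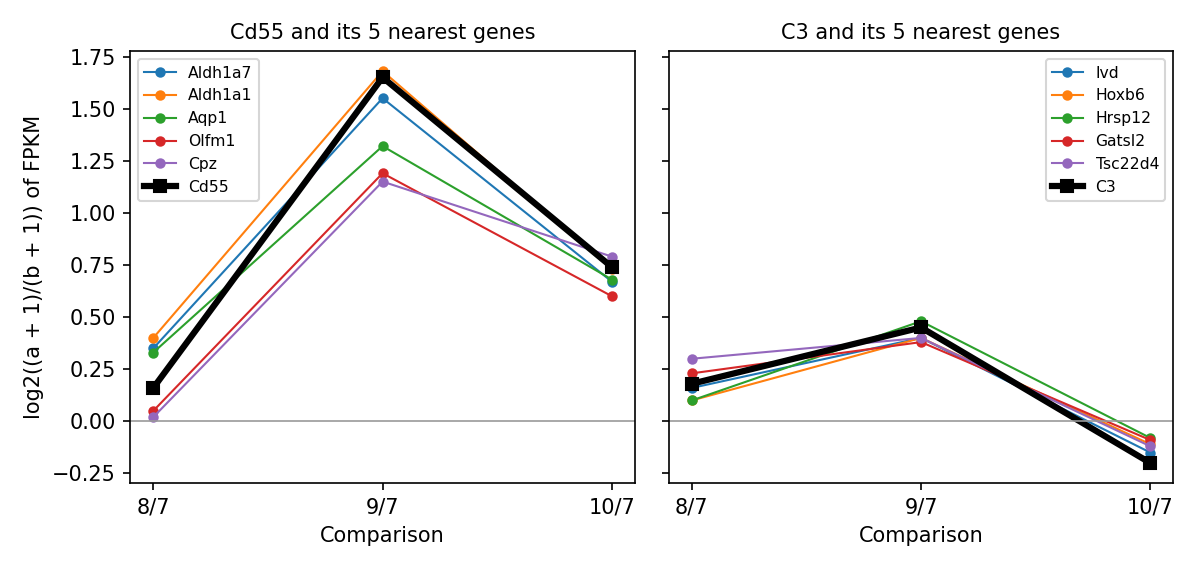
Ratio to the scramble library (log2 of FPKM + 1) in 8/7, 9/7 and 10/7 for Cd55 (left) and C3 (right), in black, with the 5 genes at the smallest distance to each. Cd55 and its neighbours peak in library 9, while C3 and its neighbours stay within 0.58 of 0.

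A wider list of 58 complement genes (30 activating components, 20 regulators and 8 receptors, the 9 genes included) placed these values in the rest of the system. Of the 58, 14 reached 1 FPKM in any of libraries 7 to 10 and 21 were listed at 0 in all 4. Those at 0 included all 3 C1q chain genes, C6, C7, C8a, C8b and C9 of the membrane attack complex, and Cfd, which encodes factor D. In each comparison 13 of the 58 were measured. Cd59b, at 1.18 FPKM in library 9, was left out of these counts because it was listed at 0 in library 7. With the FoxO1 siRNA 0 were 0.58 or more higher and 1 lower (C1s1, -0.59), where 1.03% and 0.881% of all measured genes were. In the library labelled FoxO3 siRNA 2 were higher (Cd55, and C1s1 at 0.82) and 1 lower (C4a, -0.79), against 1.84% and 1.89% of all measured genes. With both siRNAs 2 were higher (Cd55, and Cfp at 0.80) and 0 lower, against 1.14% and 0.945% of all measured genes. Median ratios of the 13 were 0.02, -0.04 and -0.03, beside the medians over all genes given above. The wider list was chosen with earlier results of these data known and includes Cd55, so these counts are descriptions and carry no test.

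C1s1, which encodes a C1s protease and lies 6901 bases from C1ra, stood at 1.33, 5.19 and 1.55 FPKM in libraries 8, 9 and 10, against 2.50 FPKM in the scramble library. It was also higher in both Wnt3a libraries, at 0.593 FPKM against 0.271 FPKM with buffer, and at 4.98 FPKM with H2O2 and Wnt3a against 1.48 FPKM with H2O2 and no Wnt3a entered. With both siRNAs and no H2O2 it stood at 0.402 FPKM, against 1.09 FPKM with scramble siRNA. Like C3, C1s1 was thus above its partner in the Wnt3a pair with H2O2 and in 9/7. It was below scramble with the FoxO1 siRNA, where C3 was above it. Both genes come from a list selected for higher values with Wnt3a than with buffer, so their shared direction without H2O2 was fixed by that selection. C1s1 was also below 1 FPKM in both libraries of that pair. Of the exonic bases of C1s1, 18.4% overlap Gm16567 on the opposite strand.

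C4a, a C4 gene with a near-identical copy in C4b, stood at 1.21, 0.241 and 1.33 FPKM in libraries 8, 9 and 10, against 1.14 FPKM in the scramble library. Cfp, which encodes properdin, the stabilizer of the alternative convertase, stood at 2.17, 2.25 and 2.86 FPKM, against 1.21 FPKM in the scramble library. Without H2O2 Cfp was lower with both siRNAs, at 1.23 FPKM against 1.76 FPKM with scramble siRNA. Clu, which encodes the fluid-phase inhibitor clusterin, stood at 23.5, 19.2 and 22.6 FPKM, against 27.6 FPKM in the scramble library, and no ratio passed 0.58.

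**Figure D4:**
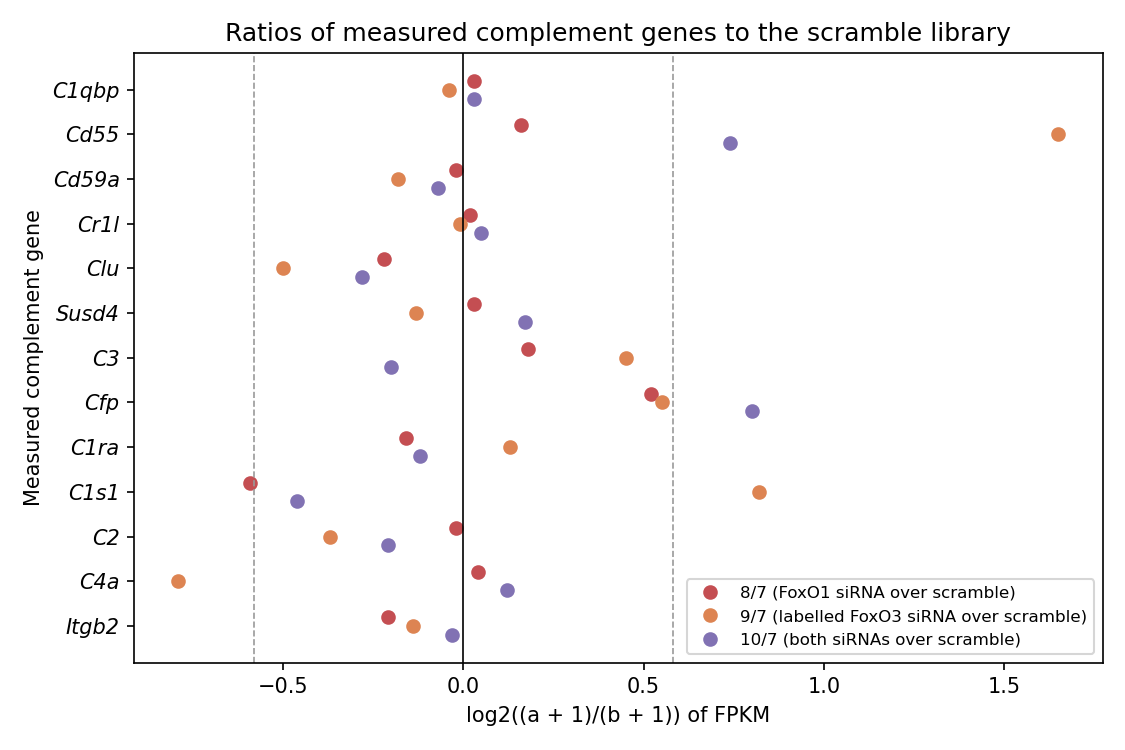
Ratio to the scramble library (log2 of FPKM + 1) of the 13 measured complement genes, with red points for 8/7, orange for 9/7 and purple for 10/7 and dashed lines at 0.58 either way. Cd55 at 1.65 in 9/7 is the farthest point, and C1s1 lies on opposite sides of 0 in 9/7 and in 8/7 and 10/7.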

How the data were processed

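RNA of 10 libraries, 1 per group, was sequenced as 100-nt reads. The authors deposited FPKM values and Cuffdiff's p-values and q-values, as the file headers name them; the submitters' processing notes name TopHat2, Cufflinks, Cuffdiff and mm10, with settings, annotation and strand handling not given in the sources used here. 3 tables of all genes set libraries 8, 9 and 10 against 7, and 2 lists of genes, selected by the authors, give 4 libraries each. Library 7 differed between tables by median factors of 1.00217 and 1.00334, so tables were taken as scaled separately and comparison ratios were taken within a table or pair. Ratios between siRNA libraries are differences of 2 such ratios. Highest-over-lowest ranges over libraries 7 to 10 cross the 3 tables.

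Ratios carried a pseudocount of 1 FPKM. Measured meant that either library reached 1 FPKM and neither was at 0, and the size rule was 0.58. The robust spread used genes at 5 FPKM or more. The unit matched the plan. The members, the wider complement list, markers and rules were chosen with earlier results of these data known. The text names the 9 members, wider-list genes past 0.58, and the 5 genes nearest to each of 2 members. Clu was named after its values were seen, and so were C6 and the other genes listed at 0. Scripts were tested on simulated data.

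No totals are given, so depth is unknown and no interval was computed. Among genes under 0.3 FPKM, 55.9%, 52.0% and 44.0% of 2895, 2879 and 2868 had ratios within 0.03 (log2) of a whole-number ratio at the relative depths given for libraries 8, 9 and 10. Those depths were picked for having the highest share. The median share over all depths tried was 20.1%, 20.5% and 23.1%. Coordinates are from GENCODE on GRCm38. Alternatives were other pseudocounts, filters, size rules and centring. Software was Python 3.11.15, numpy 2.4.6, pandas 2.3.3 and matplotlib 3.10.9.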

Additional observations from a re-analysis of the deposited data

Results flagged for a closer look

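With both siRNAs, Cd46 was above scramble with H2O2 and below it without H2O2, ratios that differed by 0.28, with all values under 1 FPKM. Serping1 did the same, with a difference of 0.32 and all values under 1 FPKM. Cfp, the properdin gene, was also above scramble with H2O2 (0.80) and below it without H2O2 (-0.31), a difference of 1.11. Each group has 1 library, so none of these 3 differences was tested.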

How the results depend on the processing

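No paired analysis was possible because each group has 1 library, and for the same reason no replicate could be left out. Centring on the median ratio left each ratio within the robust spread and, like dropping the low-value filter, left each count as it was. A pseudocount of 0.1 FPKM gave Cd55 0.28, 2.32 and 1.17 in 8/7, 9/7 and 10/7, and 5 FPKM gave 0.77 in 9/7 and 0.29 in 10/7. In the Wnt3a pairs C3 was 3.11 (2/1) and 5.12 (6/5) with 0.1 FPKM and 1.22 and 2.42 with 5 FPKM. Cd55 was 0.97 (2/1), 0.72 (6/5) and 1.56 (4/3) with 0.1 FPKM and 0.09, 0.08 and 0.31 with 5 FPKM. The count of members higher in 10/7 became 0 with a pseudocount of 5 FPKM, a minimum of 5 FPKM or a size rule of 1. For the wider list, those 3 settings each gave 0 higher in 10/7, 0 lower in 8/7 and 0 lower in 9/7, and the first and the last gave 1 higher in 9/7. With 0.1 FPKM the wider list had 1 higher in 8/7, 3 higher in 9/7 and 1 lower in 10/7. No ratio past 0.58 changed sign; the ratio of Cr1l in 9/7, -0.01, became 0.01 when centred. The direct ratio between tables moved the 27 ratios between siRNA libraries by at most 0.01. Unknown depth limits what can be said of genes below 1 FPKM.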
